A study of Mus musculus with 2 samples.

Results

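Beta-catenin, the complex that marks it for destruction and the Dishevelled proteins that restrain this complex form the intracellular part of the canonical Wnt pathway. Their transcripts were compared between the second polar body (PB2), the small cell extruded when the fertilized mouse egg completes meiosis, and the zygote it came from. The genes were chosen by name as this intracellular part of the pathway: Ctnnb1, Axin1, Axin2, Apc, Gsk3a, Gsk3b, Csnk1a1, Dvl1, Dvl2 and Dvl3. Of these 10 genes, 9 were in the deposited table of 11262 genes, and Dvl1 was not analysed here. Both groups were C57BL/6 mouse material at the late one-cell stage with no experimental treatment, and each had 1 library. Per the study's general methods, females were super-ovulated with PMSG and HCG before mating, and granule cells were removed with hyaluronidase. Embryos were cultured in KSOM, the zona pellucida was dissolved in acid Tyrode's solution, and PB2 was split from the zygote in trypsin by pipetting. Each library was made from a pool, so differences between single embryos were not seen, and the polyA RNA was amplified as full-length cDNA before sequencing.

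In the absence of a Wnt signal, the scaffolds Axin and Apc hold beta-catenin beside the kinases casein kinase 1 alpha and Gsk3, whose phosphorylation sends it to the proteasome. When a Wnt ligand binds its receptors, Dishevelled recruits Axin to the membrane, the complex no longer works, and beta-catenin reaches the nucleus and acts with Tcf and Lef factors. Beta-catenin also links cadherins to the actin cytoskeleton, a role the early mouse embryo needs when its cells compact.

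The stretch of Ctnnb1 that encodes the residues phosphorylated by these kinases is short, and it is shown because this is where casein kinase 1 alpha and Gsk3, described below, mark the protein for destruction. It lies in exon 3 of the annotated transcript, at chr9:120950593-120950655 of GRCm38 on the plus strand, and encodes residues 29 to 49 of a protein of 781 residues. Capitals mark the codons of the phosphorylated residues, codon 45 for casein kinase 1 alpha and codons 41, 37 and 33 for Gsk3.
Ctnnb1, codons 29 to 49: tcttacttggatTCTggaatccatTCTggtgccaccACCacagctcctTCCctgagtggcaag

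Values are TPM, in which transcript abundance is corrected for gene length and set to the same total in each library. Such values are meant for comparison between genes within a library and between libraries, but how they were computed here is not given. They are proportions: a gene can be higher in PB2 because others take a smaller share there, and more of its transcripts cannot be told apart from less of other RNA, nor, in pooled material, fewer cells from less RNA per cell. With 1 library per group there was no test and no spread between replicates, so every difference below describes these 2 libraries. The log2 ratio is log2((PB2 TPM + 1)/(zygote TPM + 1)), and 2-fold means a log2 ratio of at least 1 in size. It was computed for the 10645 genes with at least 1 TPM in either library, which included all 9 genes. The values were deposited to 1 decimal, and the bounds given with a ratio of TPM are those that rounding allows. They hold no counting error, since the depth of the libraries is unknown.

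Ctnnb1, Axin1, Dvl2 and Dvl3 were 2-fold or more higher in PB2, and none of the 9 genes was 2-fold or more higher in the zygote. Csnk1a1 fell just under 2-fold, and Apc, Axin2, Gsk3a and Gsk3b differed by at most 1.22-fold. The 4 genes past 2-fold are 44.4% of the 9, and 18.9% of all genes compared were 2-fold or more higher in PB2, while 8.09% were so in the zygote, 27% in either direction. The median log2 ratio of the 9 genes was 0.98, and that of all genes compared was 0.21. Of the 9 genes, 8 were higher in PB2 by any amount, as were 59.2% of all genes compared, and 6 lay above the median of all genes. Ctnnb1, Axin1, Dvl2 and Dvl3 are marked in the study's own plot of PB2 against zygote RNA-seq as genes enriched in PB2, so their direction is not independent evidence.

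**Figure D1:**
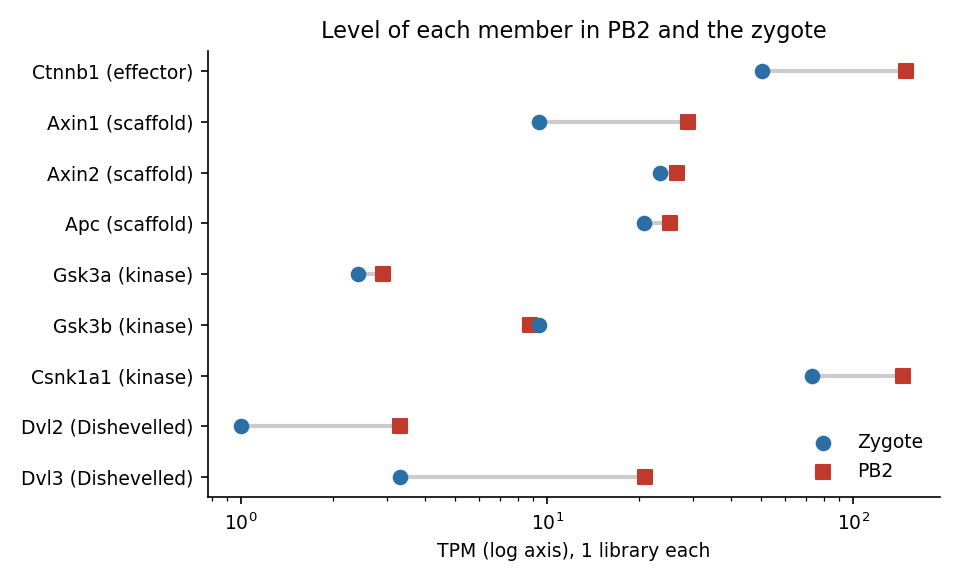
TPM of each gene in the zygote (blue circles) and PB2 (red squares) on a log axis, 1 library each, with a grey line joining both values of a gene. The lines of Ctnnb1, Axin1, Dvl2, Dvl3 and Csnk1a1 are long and run towards PB2, while those of Axin2, Apc, Gsk3a and Gsk3b are short.

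Ctnnb1, which encodes beta-catenin, had 149.3 TPM in PB2 against 50.2 TPM in the zygote, a log2 ratio of 1.55. The ratio of the TPM was 2.97, and rounding left it between 2.97 and 2.98. It was the most abundant of the 9 genes in PB2 and ranked 974 in the table, above 91.3% of its genes, whereas in the zygote it ranked 2245 and stood below Csnk1a1. Its log2 ratio was exceeded by 717 genes. Ctnnb1 (ENSMUSG00000006932) spans chr9:120929216-120960507 on the plus strand of GRCm38. Its exons share 759 of 5192 bases with exons of Ulk4, a gene on the opposite strand, and whether counting used strand is not given in the sources used here. Of the 50-base stretches of its longest transcript, 18.6% occur in Ulk4 transcripts when both strands are searched. Ulk4 had 1.8 TPM in PB2 against 2.4 TPM in the zygote, and the part of reads in shared exons was not tested.

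The scaffolds of the destruction complex did not move together. Axin1 had 28.9 TPM in PB2 against 9.4 TPM in the zygote, a ratio of 3.07 with rounding bounds of 3.05 and 3.10 and a log2 ratio of 1.52. Axin2 had 26.6 TPM in PB2 against 23.4 TPM in the zygote, a ratio of 1.14 and a log2 ratio of 0.18. Axin2 is a close relative of Axin1 that Wnt signaling itself induces, so that it acts in negative feedback. In the zygote Axin2 made up 71.3% of the summed TPM of both genes, and in PB2 Axin1 made up 52.1%. The quotient of Axin1 over Axin2 was 0.402 in the zygote and 1.09 in PB2. Apc, the large scaffold whose loss stabilizes beta-catenin in colorectal tumors, had 25.2 TPM in PB2 against 20.7 TPM in the zygote, a ratio of 1.22 and a log2 ratio of 0.27. Among the scaffolds, only the Axin1 transcript was past 2-fold, and it moved from the lowest level of these 3 genes in the zygote to the highest in PB2. Axin1 (ENSMUSG00000024182) lies at chr17:26138688-26195811 and Axin2 (ENSMUSG00000000142) at chr11:108920349-108950783, both on the plus strand of GRCm38.

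The kinases differed from each other as well. Csnk1a1, which encodes casein kinase 1 alpha, the kinase that primes beta-catenin, had 145.9 TPM in PB2 against 73.5 TPM in the zygote. Its ratio of 1.99, with rounding bounds of 1.98 and 1.99, and its log2 ratio of 0.98 put it just outside the 2-fold threshold, while Dvl2 with a log2 ratio of 1.10 was the gene just inside. Gsk3b had 8.8 TPM in PB2 against 9.4 TPM in the zygote, a ratio of 0.936 with bounds of 0.926 and 0.947, and was the one gene of the 9 with a lower value in PB2. Gsk3a had 2.9 TPM in PB2 against 2.4 TPM in the zygote, a ratio of 1.21 with bounds of 1.16 and 1.26. Gsk3a and Gsk3b encode the kinases that extend the phosphorylation of beta-catenin towards its amino terminus, and they also act in insulin and other pathways. Together they had 11.7 TPM in PB2 against 11.8 TPM in the zygote, of which Gsk3b held 75.2% and 79.7%. Exons of Gsk3a overlap 820 bases of an antisense transcript, 9130221H12Rik, out of 2900, and reads there could come from either. Of the 50-base stretches of the longest transcript, 19.4% for Gsk3a and 0.0242% for Gsk3b occur in transcripts of other genes on either strand. Gsk3a (ENSMUSG00000057177) lies on the minus strand at chr7:25228258-25237851 and Gsk3b (ENSMUSG00000022812) on the plus strand at chr16:38089001-38246084.

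Dishevelled transcripts were scarce in the zygote. Dvl3 had 20.8 TPM in PB2 against 3.3 TPM in the zygote. Its ratio of 6.30, with rounding bounds of 6.19 and 6.42, and its log2 ratio of 2.34 were the largest of the 9 genes, and only 99 genes of the table exceeded it. Dvl2 had 3.3 TPM in PB2 against 1.0 TPM in the zygote, a ratio of 3.30 that rounding leaves between 3.10 and 3.53. Its log2 ratio of 1.10 is held down by the pseudocount. Dvl3 and Dvl2 encode scaffolds that polymerize at the receptor and draw in Axin, and they are thought to act in part redundantly. Dvl3 held 76.7% of their summed TPM in the zygote and 86.3% in PB2, so Dvl3 was the more abundant of this pair in both libraries. Dvl2 stood above 26.2% of the genes of the table in PB2 and 11.8% in the zygote, where its value was the lowest of the 9. Exons of Dvl2 share 1151 of 6298 bases with Acadvl on the opposite strand, and 16.3% of the 50-base stretches of its longest transcript also occur in transcripts of other genes. For Dvl3 1.51% of such stretches do, in transcripts of 1039 other genes, and their part in the Dvl3 values was not tested. Dvl3 (ENSMUSG00000003233) lies at chr16:20516982-20534010 and Dvl2 (ENSMUSG00000020888) at chr11:70000595-70012301, both on the plus strand.

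**Figure D2:**
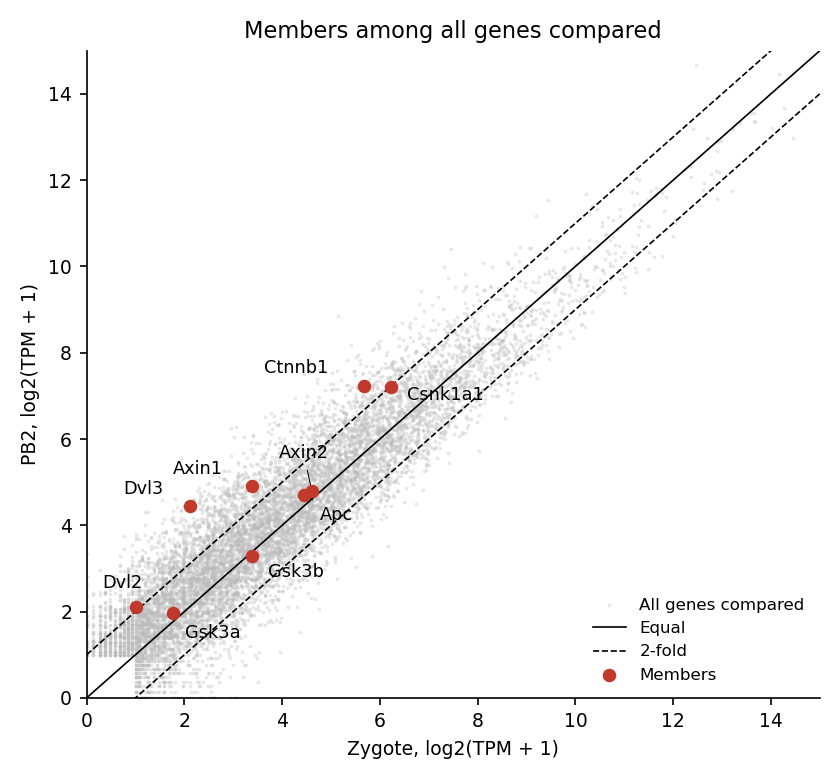
log2(TPM + 1) in PB2 (vertical) against the zygote (horizontal) for the 10645 genes compared (grey) and the 9 genes described here (red), with a solid line at equal values and dashed lines at 2-fold. Dvl3, Ctnnb1, Axin1 and Dvl2 lie above the upper dashed line, Csnk1a1 lies on its lower edge, and the other 4 lie near the solid line.

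Summed over the 9 genes, the TPM was 411.7 in PB2 and 193.3 in the zygote, a ratio of 2.13, while the summed TPM of the whole table differed by a ratio of 0.969. Ctnnb1 and Csnk1a1 held most of the sum in both libraries, 36.3% and 35.4% in PB2 and 26.0% and 38.0% in the zygote. Relative to Axin1, Ctnnb1 was about as abundant in both libraries, with a quotient of 5.17 in PB2 and 5.34 in the zygote, and relative to Axin2, Apc and the Gsk3 pair it was more abundant in PB2. The quotient of Ctnnb1 over Axin2 was 5.61 in PB2 and 2.15 in the zygote, that over Apc was 5.92 and 2.43, and that over Gsk3a and Gsk3b together was 12.8 and 4.25. The quotient of Dvl2 and Dvl3 over Axin1 and Axin2 was 0.434 in PB2 and 0.131 in the zygote. These are quotients of transcript levels, and the proteins were not measured in these libraries. The quotients take no account of the GC content of the transcripts, described below. With its average trend removed, the log2 ratio of Ctnnb1 was 1.26 and that of Axin1 was 0.74.

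Features of the transcripts that played no part in the choice of the genes were read from the longest protein-coding transcript of each in GENCODE M21. GC content ranged from 43.3% for Csnk1a1 to 59.8% for Gsk3a, around a median of 49.2% over the table, and length from 2260 nucleotides for Gsk3a to 12811 nucleotides for Apc, around a median of 3158. Across the 10606 genes compared that have such a transcript, the log2 ratio rose with GC content, with Spearman's rho of 0.44 across genes, which share their libraries and are not independent replicates. The genes were divided into 10 groups of equal size by GC content. In the group that holds Dvl3, Axin1 and Dvl2, 39.2% of genes passed 2-fold towards PB2 and the median log2 ratio was 0.80. In the group of Ctnnb1 16.1% did, with a median of 0.31, and in the group of Csnk1a1 4.24% did, with a median of -0.14. Gsk3a had the highest GC content of the 9 genes and a log2 ratio of 0.20, below the median of 0.93 of its group, and Axin2 with 54.6% GC had 0.18, below the 0.58 of its group.

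With the average trend on GC content removed, the log2 ratio was 1.65 for Dvl3, 1.26 for Ctnnb1 and 1.13 for Csnk1a1, which then made up the genes past 2-fold. On that scale 9.08% of all genes passed 2-fold towards PB2. The log2 ratio was then 0.74 for Axin1 and 0.28 for Dvl2, both under 2-fold, and -0.46 for Axin2 and -0.75 for Gsk3a. Ctnnb1 and Dvl3 thus stayed past 2-fold on either scale, while Axin1 and Dvl2 passed only without the removal and Csnk1a1 only with it. Whether GC content takes part in these differences, through amplification or otherwise, was not tested.

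**Figure D3:**
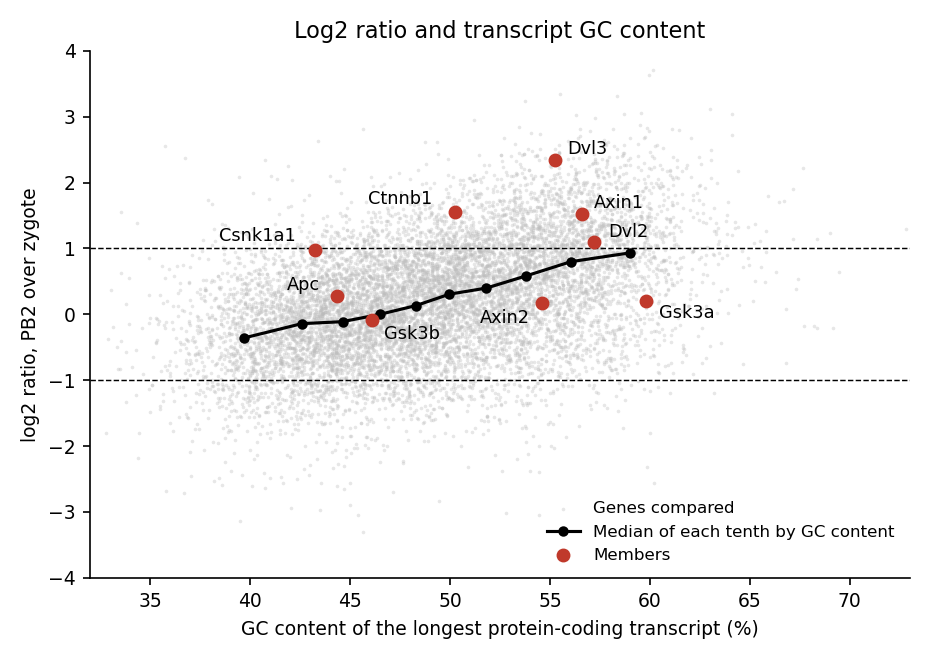
Log2 ratio of PB2 over zygote against the GC content (%) of the longest protein-coding transcript, for all genes compared (grey) and the 9 genes (red). Black points are the medians of 10 groups of genes ordered by GC content and rise from -0.36 to 0.93, dashed lines mark 2-fold, and Ctnnb1, Csnk1a1 and Dvl3 lie well above the black line while Gsk3a and Axin2 lie below it.

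Maternal transcripts of the egg can have their poly(A) tails lengthened in the cytoplasm through the cytoplasmic polyadenylation element, a U-rich site near the end of the transcript, and polyA RNA was measured here. The DNA letters of 2 forms of this element, TTTTAT and TTTTAAT, were searched on the transcript strand in the last 150 nucleotides of each longest transcript. Ctnnb1 held both forms and Axin2 held TTTTAT, and the windows of the other 7 genes held neither. Of 10339 genes with a 3′ UTR of at least that length, 26.2% held at least one form. The sites are shown because these are the genes of the 9 that carry them, with the motif in capitals, 5′ to 3′ on the plus strand of GRCm38.
Ctnnb1, chr9:120960404-120960431: taccagttgccTTTTATcccaaagttgt
Ctnnb1, chr9:120960483-120960507: cagaattaaacTTTTAATtcattca
Axin2, chr11:108950756-108950783: ctttattaaaaTTTTATatttttcaaaa
The sites start 93 and 14 nucleotides before the annotated end of Ctnnb1 and 17 before that of Axin2. Ctnnb1 and Axin2 had log2 ratios of 1.55 and 0.18. Over all genes compared, the median log2 ratio was 0.26 for the 2549 with either form and 0.24 for the 7200 with neither. A match to these letters is a description and does not show that the site is used. RefSeq promoters of GRCm38.p6, 300 bases each, were read for 6 of the 9 genes. Those of Apc and Csnk1a1 were not examined, and none was found for Axin1. None of the 7 promoters read held the Tcf and Lef motif CTTTGAT on either strand. Of 32851 promoters 3.73% held it, so 7 promoters are too few to differ from that share, and nothing is read from this.

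The rest of the pathway was followed through 8 lists of genes with other roles, 141 genes without the 9, of which 80 had at least 1 TPM in either library. Of these, 24 genes, 30%, were 2-fold or more higher in PB2, beside 18.9% of all genes compared. Among the 24, Wnt2b, Wnt7a, Wnt10b, Rnf43, Frzb, Ppp2r5b and Ctnna2 were under 1 TPM in the zygote. They entered the comparison through PB2 alone, so nothing is read from this share. In the zygote 4 of the 80 were 2-fold or more higher, beside 8.09% of all genes, and of these Dkk1 entered through the zygote alone. The median log2 ratio of the 80 was 0.55. With the GC trend removed, 10 of them passed 2-fold towards PB2, as did 9.08% of all genes on that scale, and 4 passed towards the zygote.

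Among the ligands, 3 of 19 Wnt genes were in the table, and each was low and 2-fold or more higher in PB2. All 3 were under 1 TPM in the zygote and entered the comparison through PB2 alone, so nothing is read from this count, and they too are marked in the study's plot. Wnt7a had 5.0 TPM in PB2 against 0.8 TPM in the zygote, Wnt10b had 1.5 and 0.2 TPM, and Wnt2b had 1.4 TPM in PB2 and was listed at 0 in the zygote. With the GC trend removed, Wnt7a alone passed 2-fold, at 1.04, and the median of the 3 became 0.64. Wnt10b and Wnt2b are named here because of their values. Among the receptors and ligand-release genes, 1 of 7 was past 2-fold towards PB2, 14.3% beside 18.9% of all genes compared. It was the co-receptor Lrp5, with 8.7 TPM in PB2 against 3.4 TPM in the zygote. Lrp5 was under 2-fold after centring and after removal of either trend, at 0.25 with the GC trend removed. Ryk, a receptor related to tyrosine kinases, was the most abundant of this list, with 102.6 and 84.9 TPM, a log2 ratio of 0.27 that was also the median of the list, which became -0.05 with the length trend removed.

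Of the 5 genes for receptor turnover and R-spondins, 3 (60%) were 2-fold or more higher in PB2, as were 18.9% of all genes compared. Rnf43 was under 1 TPM in the zygote and entered the comparison through PB2 alone, so nothing is read from this count. With the GC trend removed 2 of the 5 passed, as did 9.08% of all genes on that scale. Lgr6, an R-spondin receptor, had 20 TPM in PB2 against 4.5 TPM in the zygote, and Rnf43, a ligase that removes Wnt receptors from the surface, had 5.7 and 0.8 TPM. Rspo2, an R-spondin that protects the receptors from this removal, was far more abundant than either and lower in PB2, with 607.9 and 820.0 TPM. Of the 4 secreted and surface inhibitors compared, 2 (50%) were past 2-fold towards PB2 and 1 towards the zygote, beside 18.9% and 8.09% of all genes. Frzb entered the comparison through PB2 alone and Dkk1 through the zygote alone, so nothing is read from these counts. The median log2 ratio of these 4 inhibitors, 0.37, became -0.04 with the GC trend removed, and 0 of them then passed towards PB2. Kremen1, a receptor of the Dkk inhibitors, had 7.2 TPM in PB2 against 2.2 TPM in the zygote.

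**Figure D4:**
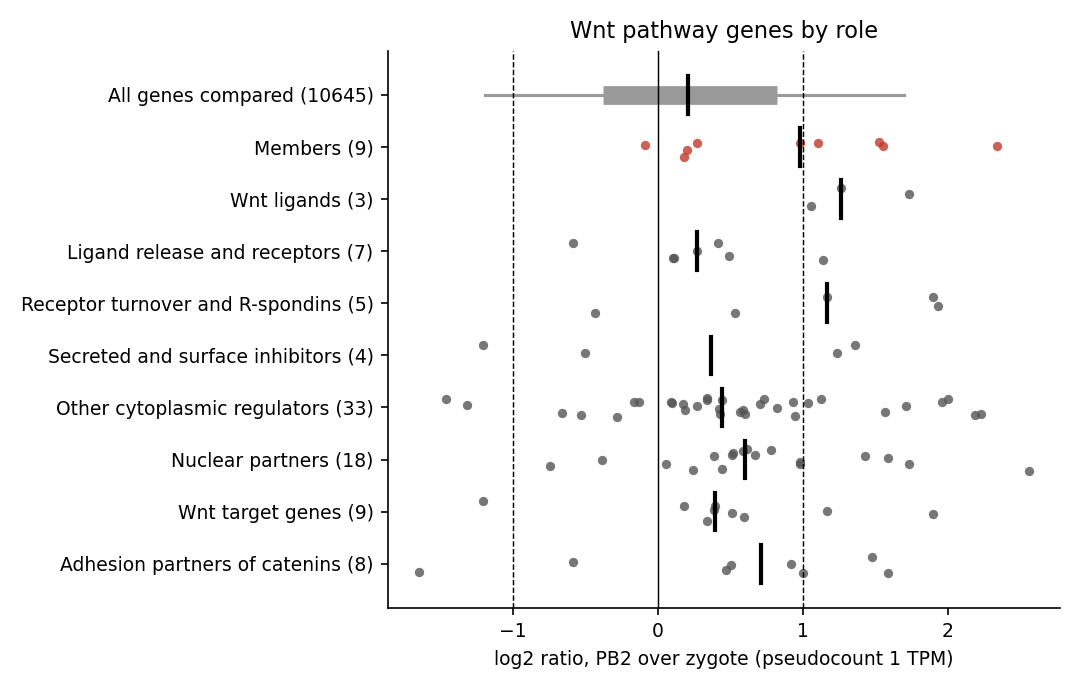
Log2 ratio of PB2 over zygote for the 9 genes (red) and for 8 lists of other Wnt pathway genes (dark grey points, 1 per gene, number compared in parentheses), with a black bar at each median and dashed lines at 2-fold. The grey box of all genes compared spans the middle 50% and its line the middle 90%, and the lists overlap it widely, with medians from 0.27 for the receptors to 1.26 for the 3 ligands. The 3 ligands entered the comparison through PB2 alone, and some genes of other lists through 1 library alone.

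Other regulators that act beside the destruction complex went in both directions. Of 33 genes compared, 8 passed 2-fold towards PB2 and 2 towards the zygote, with a median log2 ratio of 0.44. The 8 are 24.2% of the list, near the 18.9% of all genes compared, of which 8.09% passed towards the zygote. Zbed3, which encodes a protein that binds Axin, was the most abundant, with 25991 TPM in PB2 against 5689 TPM in the zygote, a log2 ratio of 2.19. The Zbed3 level in PB2 was far above that of every one of the 9 genes. Ppp2r1a, the scaffold subunit of the phosphatase PP2A, had 152.1 TPM in PB2 against 38.4 TPM in the zygote. Ppp2r5b, a regulatory subunit of PP2A, had 5.4 and 0.6 TPM and entered the comparison through PB2 alone. Csnk1g2, a casein kinase 1 of the gamma type, had 22 TPM in PB2 against 3.9 TPM in the zygote. Dact3, which binds Dishevelled, had 9.8 and 2.3 TPM. With the GC trend removed Dact3 was at 0.62, and 4 genes of the list passed towards PB2, as did 9.08% of all genes on that scale. The 2 genes past 2-fold in the zygote, Skp1a and Rnf146, belong to ubiquitin ligases. Other ubiquitin ligase genes of the list were under 2-fold and went both ways, with log2 ratios from -0.66 to 0.57. Skp1a, a subunit of the ligase that takes phosphorylated beta-catenin, had 735.2 TPM in PB2 against 2033 TPM in the zygote, and Rnf146, the ligase that degrades Axin after its modification by tankyrase, had 24.7 and 63.1 TPM.

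In the nucleus, 4 of the 18 partners compared were 2-fold or more higher in PB2 and none in the zygote, with a median log2 ratio of 0.60. The 4 are 22.2% of the list, near the 18.9% of all genes compared. With the GC trend removed Bcl9 alone passed, at 1.86, and the median became 0.15. Bcl9, the adaptor that joins beta-catenin to Pygopus, had 59.9 TPM in PB2 against 9.3 TPM in the zygote, a log2 ratio of 2.56, and Pygo2 had 19.6 and 5.2 TPM. Smarca4, the ATPase of a chromatin remodeler, had 25.5 TPM in PB2 against 7.8 TPM in the zygote, and the corepressor Ctbp1 had 6.0 and 1.6 TPM. Its relative Ctbp2 was the most abundant of the list, with 91.5 and 52.8 TPM. Of the 9 Wnt target genes compared, among them Axin2, 2 were past 2-fold towards PB2 and 1 towards the zygote. Their median log2 ratio of 0.39 became -0.06 with the GC trend removed. Of all genes compared, 8.09% passed towards the zygote and 18.9% towards PB2, near the 22.2% that these 2 target genes make up. Rnf43, given above, is one of those higher in PB2 and entered the comparison through PB2 alone. Dkk1, the target gene past 2-fold in the zygote, entered through the zygote alone. The 2 genes towards PB2 are also counted in the receptor turnover list, and Dkk1 in the inhibitor list. Nkd1, a feedback inhibitor that binds Dishevelled, had the highest level of the target genes, 88.1 TPM in PB2 against 69.4 TPM in the zygote.

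At the cadherin junction, where Ctnnb1 has its other role, Cdh1 (E-cadherin) had 54.7 TPM in PB2 against 17.5 TPM in the zygote, a log2 ratio of 1.59, and Cdh3 (P-cadherin) had 7.9 and 2.2 TPM. Ctnna1, the alpha-catenin that ties beta-catenin to actin, was lower in PB2, with 80.4 and 121.1 TPM, and Vcl, which encodes vinculin, had 6.0 TPM in PB2 against 21 TPM in the zygote, a log2 ratio of -1.65. Of the 8 genes of this list, 3 (37.5%) passed 2-fold towards PB2 and 1 towards the zygote, beside 18.9% and 8.09% of all genes compared. Among the 3, Ctnna2 had 2.4 TPM in PB2 against 0.7 TPM in the zygote, a log2 ratio of 1, on the threshold. It entered the comparison through PB2 alone, so nothing is read from the count towards PB2. With the GC trend removed 2 of the 8 passed towards PB2, as did 9.08% of all genes on that scale.

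The makeup of both libraries was checked with marker lists. All 14 oocyte markers were present, at 99.5 to 10496 TPM in PB2 and 62.7 to 22562 TPM in the zygote. Their median log2 ratio was 0.48. Past 2-fold were 4 towards PB2 (28.6%) and 1 towards the zygote, beside 18.9% and 8.09% of all genes compared. By any amount, 59.2% of all genes were higher in PB2, and so were 9 of these 14 markers. Their sum was 0.815 times as high in PB2, where Dppa3, the most abundant in the zygote, had 8070 TPM against 22562 TPM. Of 15 cumulus and granulosa cell markers 4 were in the table, and their sum was 76.4 TPM in PB2 against 74.7 TPM in the zygote, nearly all of it Cyp19a1. Of 11 sperm markers 4 were in the table, with sums of 41.4 and 30.9 TPM. Markers of early zygotic activation, 6 of 12 in the table, summed to 222.6 TPM in PB2 against 479.6 TPM in the zygote, and the 11 mitochondrially encoded genes to 9151 and 19831 TPM, so these lists and the 9 genes described here differed in opposite directions. The part of these differences in the ratios above was not tested. Actb, which encodes beta-actin, had 134.8 TPM in PB2 against 120.0 TPM in the zygote, a log2 ratio of 0.17.

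The order of the 9 genes depended in part on how the ratio was formed. Other pseudocounts, scaling or centring of the libraries, and subtraction of a GC or length trend left Ctnnb1 between 1.20 and 1.57 and Dvl3 between 1.65 and 2.65 on the log2 scale. Axin1 ranged from 0.74 to 1.62, Dvl2 from 0.28 to 1.71 and Csnk1a1 from 0.63 to 1.13, each with values on both sides of 2-fold. Apc lay between 0.06 and 0.37 and Gsk3b was below 0 under each of these settings, while Axin2 and Gsk3a had values of both signs.

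**Figure D5:**
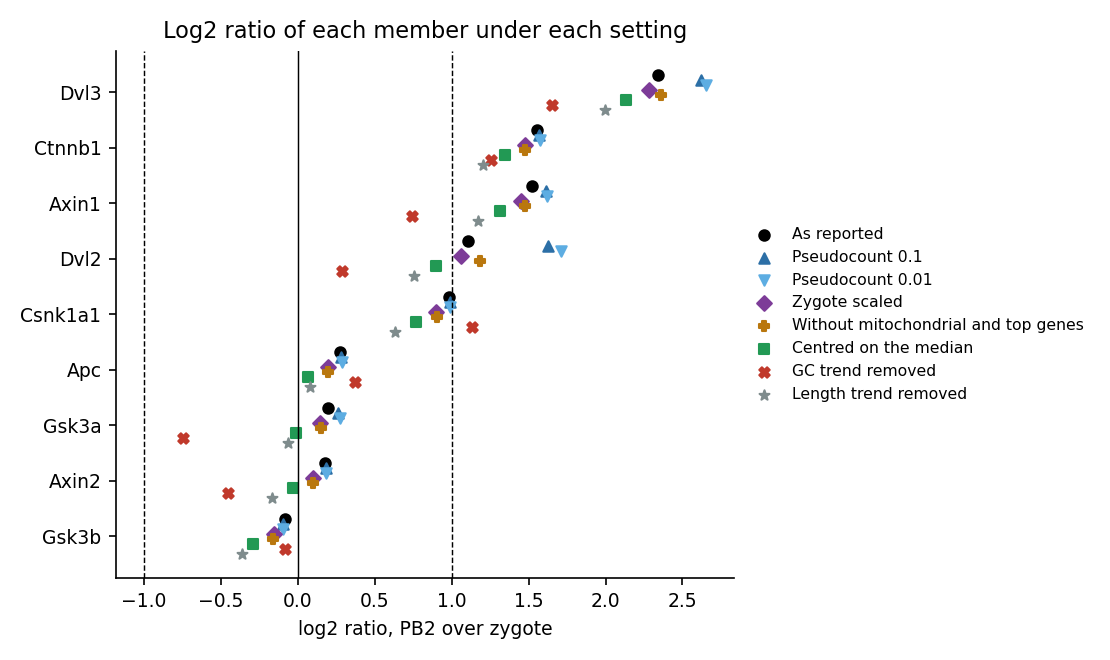
Log2 ratio of PB2 over zygote for each of the 9 genes as reported (black circles) and under 7 other settings, with dashed lines at 2-fold. Dvl3 and Ctnnb1 lie right of the 2-fold line under each setting, from 1.65 to 2.65 and from 1.20 to 1.57, while Axin1, Dvl2 and Csnk1a1 fall on both sides of it.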

How the data were processed

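Polyadenylated RNA of PB2 and the zygote was amplified with a single-cell full-length kit, 1 library each. Per the labels and the methods of the study, reads were aligned with HISAT2 (2.0.4) and counted per gene with HTSeq (0.6.1p1) on an Ensembl annotation. The methods name a rabbit assembly, while the labels also list GRCm38 and every identifier is a mouse one. The authors deposited TPM rounded to 1 decimal, and how TPM was computed is not given in the sources used here. The genes of the table add up to 89.8% (PB2) and 92.7% (zygote) of all TPM, and read depth is unknown, so precision from counting cannot be given. Value columns were matched to samples by name.

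The genes described and all lists were chosen with earlier results of these data known. Genes with at least 1 TPM in either library were compared on a log2 scale after adding 1 TPM. No test was possible with 1 library per group. From each list, genes past 2-fold whose higher value reached 5 TPM were named, up to 5 per direction, with the gene most abundant in PB2, the 5 genes nearest Ctnnb1 in both libraries, and Actb. Genes past 2-fold that entered the comparison through 1 library alone were also named. Transcript features came from GENCODE M21 (GRCm38), which had a protein-coding transcript for 11221 genes, and promoters from RefSeq. Trends on GC content or log10 length were fitted by loess (span 0.3) and subtracted, with functions tested on simulated data. The 11 alternatives were other pseudocounts, scalings, filters, thresholds and both trend removals. Python 3.11.15, numpy 2.4.6, pandas 2.3.3, statsmodels 0.14.6 and matplotlib 3.10.9 were used.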

Additional observations from a re-analysis of the deposited data

How the results depend on the processing

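No paired analysis was possible because PB2 and the zygote have 1 library each. Values were called moved past 0.5 on the log2 scale or past 1.5 times for a count, and no value past 2-fold changed direction under the 11 alternatives. With the GC trend removed, the median log2 ratio of the 9 genes was 0.37 and 10 pathway genes outside them were at least 2-fold higher in PB2. At a threshold of 1.5-fold, 38 of those pathway genes passed in PB2, with 34.2% of all genes. At 4-fold, 1 of the 9 genes (Dvl3) and 4 pathway genes passed in PB2 and 0 pathway genes in the zygote, with 2.48% of all genes passing in PB2. Dvl2 depended most on the settings, with a log2 ratio of 1.63 and 1.71 at pseudocounts of 0.1 and 0.01 and 0.89 after centring. Centring shifts every log2 ratio by 0.21 and left 3 of the 9 genes past 2-fold, with 13.0% of all genes passing in PB2. Centring gave 1383 genes higher in PB2 and 1291 in the zygote over the table, a PB2 share of 51.7% against 70.0%. That share was 45.3% with the GC trend removed and 50.8% with the length trend removed, and the count higher in PB2 was then 963 and 1284 against 2009. The directions of Gsk3a and Axin2 changed after centring, to -0.01 and -0.03, and after either trend removal. Depth is unknown, so counting error limits Dvl2 and Gsk3a most, by an amount that cannot be given.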

Other observations

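The genes whose levels in both libraries lay nearest those of Ctnnb1, by distance on the log2(TPM + 1) scale over these 2 libraries, were Dclk2, Nsf, R3hdm4, Yap1 and Laptm4a. Dclk2, a microtubule-associated kinase, had 158.8 TPM in PB2 against 49.3 TPM in the zygote. Nsf, an ATPase of membrane fusion, had 155.2 and 53.2 TPM, and R3hdm4 had 159.9 and 48.0 TPM. Yap1, the transcriptional coactivator that the Hippo pathway restrains, had 144.3 TPM in PB2 against 45.4 TPM in the zygote, and Laptm4a, a lysosomal membrane protein, had 145.0 and 45.3 TPM. With 1 library on each side, nearness of this kind says only that both levels are alike.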
